A study of Sorghum bicolor with 12 samples.

Results

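The transcripts described here rose in Sorghum leaves under drought but did not hold that rise when heat was added. They were chosen from the deposited log2 values, taking each treated array minus the control array that shares its replicate number. A probe was taken as a member when this log2 ratio was above 1 (over 2-fold) in all 3 drought replicates, its mean ratio under combined stress was below 1 and its mean ratio under heat alone lay between -1 and 1. Every spot of the probe also had to be well above background on the 3 drought arrays. This gave 51 of the 28785 probes on the array, each from a different gene. The drought, heat and combined ratios chose the members, so their values are given as a description, with no test. Rose and fell, said of members, describe these values only.

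The 12 arrays hold leaf RNA of the R16 variety of Sorghum bicolor, with 3 numbered replicates of each of 4 treatments. Control plants were watered and kept at 28 °C for 3 h in the dark, and heat plants were watered and kept at 50 °C for the same 3 h. Drought plants had water withheld for 3 days from 14 days after sowing and were then kept at 28 °C, and combined stress plants had the same water loss followed by 50 °C. Each replicate is a pool of young leaves from plants treated together, so the spread between replicates is the spread between pools. In such bulk leaf RNA, fewer cells of a type and less RNA per cell cannot be told apart.

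A plant that runs short of water builds up abscisic acid, closes its stomata and turns on genes for protective proteins, transport and cell wall change. A sudden high temperature calls up a different set, led by the heat shock factors and the chaperones they control. When both come together a leaf cools itself less by transpiration, and a transcript raised by water loss may be kept, raised further or brought down. The gene names below are those of the closest Arabidopsis match, and the roles given are those known in Arabidopsis.

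Of the 28785 probes, 966 (3.36%) were over 2-fold up in all 3 drought replicates and well above background there. Of these drought rises, 855 also had a mean combined ratio of 1 or higher. The mean combined ratio was below 1 for 111, of which 57 had fallen to a mean ratio of -1 or lower under heat alone, 3 had risen to 1 or higher under heat, and 51 were the members. The members were thus 5.28% of the drought rises. The plot of drought against combined ratios shows the members under the limit of 1 that the rule set, with no gap at this limit.

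**Figure D1:**
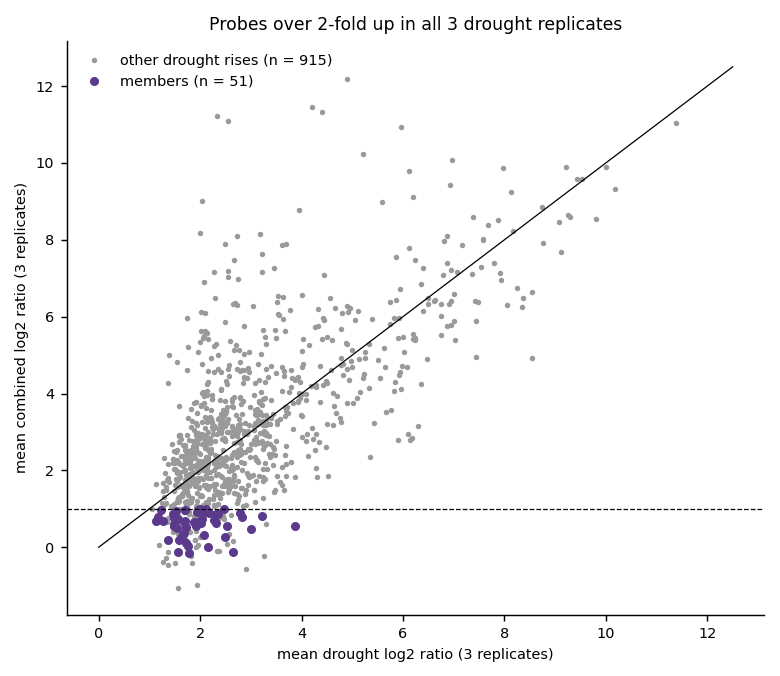
Mean combined log2 ratio (vertical axis) against mean drought log2 ratio (horizontal axis) for the 966 drought rises, each a mean of 3 replicates. The 51 members (purple) lie under the dashed line at 1, most of the other 915 (grey) lie above it, and the solid line marks equal ratios.

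Over the 51 members the median mean drought ratio was 1.91 on the log2 scale, with a range of 1.13 to 3.88. Their median combined ratio was 0.67 (-0.14 to 0.997) and their median heat ratio was -0.23 (-0.99 to 0.84). Over all probes the medians were -0.14 for drought, 0.13 for combined stress and 0.01 for heat, and over the other 915 drought rises they were 2.56, 2.84 and 0.97. The difference between combined stress and drought had a median of -1.30 over the members, from -3.34 to -0.26, against 0.02 over the other drought rises and 0.16 over all probes.

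With the deposited scaling, the word lost holds for only a portion of the members. The combined ratio was above 0 in all 3 replicates for 28 of the 51, and for 38 its mean was 0.50 or higher. On the log2 scale the median member kept 35.5% of its drought ratio. Only 3 members had a mean combined ratio below 0, and 10 more lay between 0 and 0.50. Over all 28785 probes the mean combined ratio was below 0 for 13073 and above 1 for 5934. The combined ratio was below 1 in each of the 3 replicates for 17 members, while 34 had at least 1 replicate above 1. These counts depend on the scaling, since spike-in scaling brought the median combined ratio of the members to -0.15. The rule used the combined ratio, so the counts are a description.

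The fall from drought to combined stress was seen in all 3 replicates for 47 of the 51 members (26.3% of all probes). On the signal scale, all 3 combined arrays lay below all 3 drought arrays for 25 members. The same was true of 15.2% of all probes and 7.76% of the other drought rises; the rule fixed the direction for the members, so nothing is read from these shares. For the other 26 members the drought and combined arrays overlapped when the slides were left out of account. Taken within slides, 22 of these 26 were lower in all 3 replicates, and for 21 the mean difference was larger than its SD. The rule fixed this direction too, and no share over all probes was computed for either count, so nothing is read from them. The 3 drought arrays lay above the 3 control arrays for 48 members (11.9% of all probes), and the combined arrays overlapped the control arrays for 36 (46.6% of all probes).

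**Figure D2:**
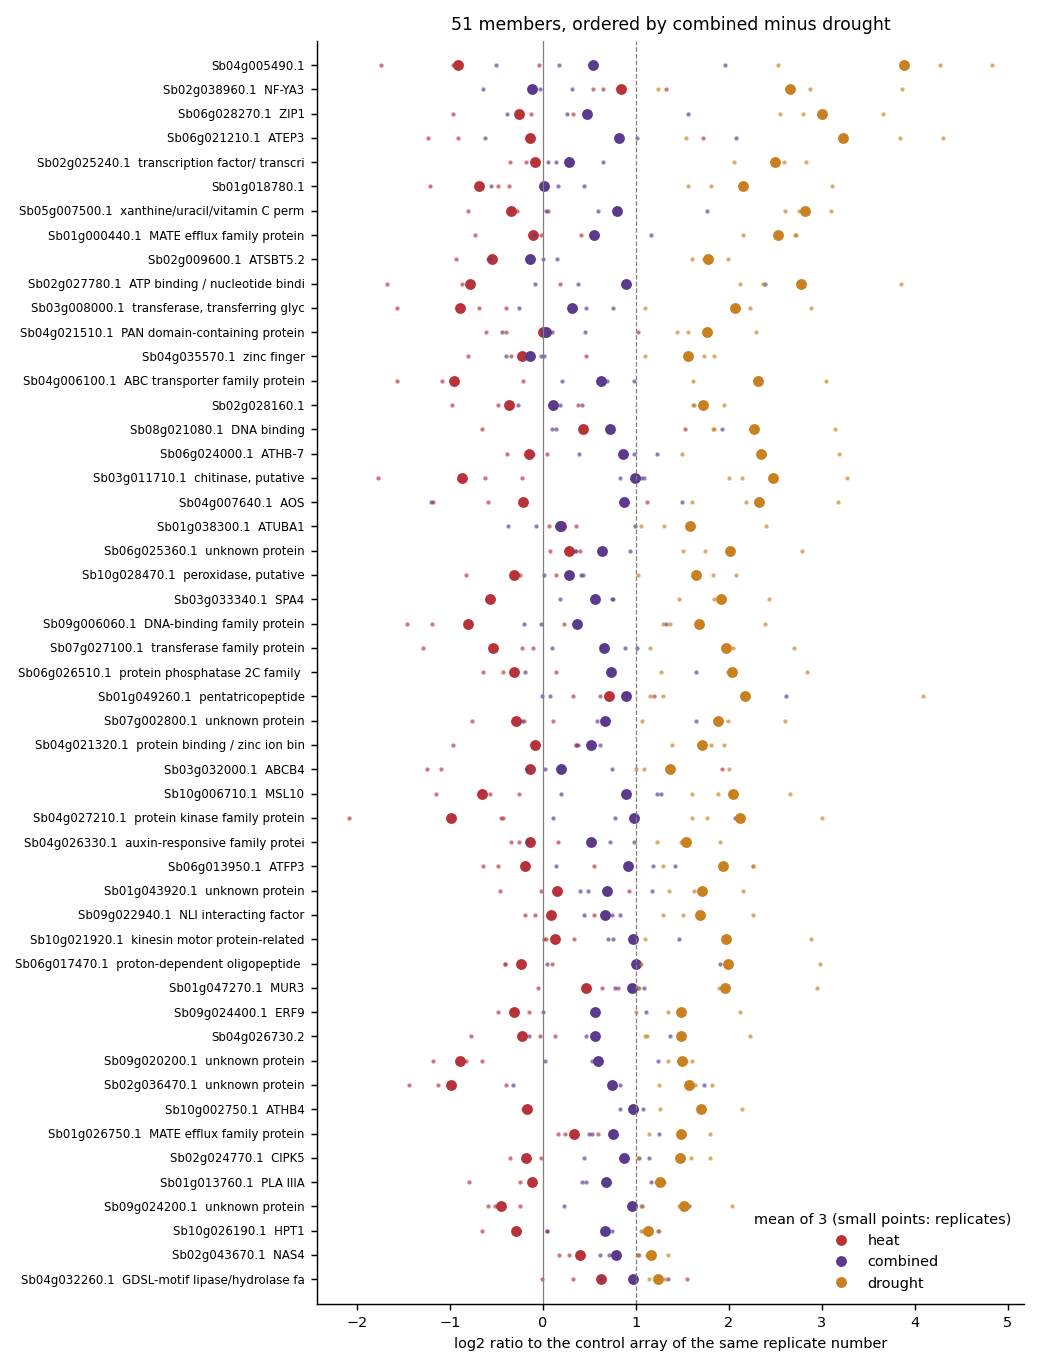
Log2 ratio to the control array sharing the replicate number (horizontal axis) for each of the 51 members, ordered by combined minus drought. Large points are means of 3 replicates and small points the replicates. The drought means run from 1.13 to 3.88, and the combined means lie at or below 0.997.

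The strength of the drought response differed between replicates. The median drought ratio of the members was 1.83, 1.30 and 2.29 in replicates 1, 2 and 3, and 44 of the 51 members had their lowest drought ratio in replicate 2. The other drought rises followed the same order, with medians of 2.51, 1.78 and 3.42. Under combined stress the medians of the members were 0.71, 0.15 and 0.83, again lowest in replicate 2. The difference between combined stress and drought was more even, at -1.20, -1.16 and -1.43. Without replicate 2 the rule gave 214 probes, of which 32 were members.

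**Figure D3:**
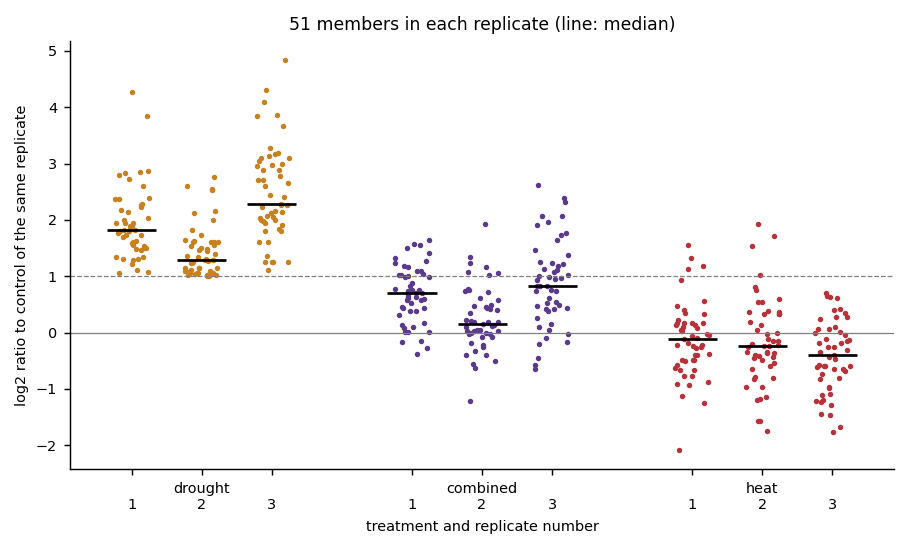
Log2 ratios of the 51 members in each replicate, one point per member, with the median as a line. Replicate 2 is lowest under drought (median 1.30) and under combined stress (0.15), and the heat medians lie between -0.40 and -0.11.

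The median control signal of the member probes was 6.20% of the 75th percentile of the array, against 7.58% for the other drought rises and 17.3% over all probes. Probes differ in brightness for equal amounts of RNA, so these are probe signals and not transcript levels. All 51 were well above background on every drought array by the rule, while 43 were so on all 3 control arrays, 38 on all 3 heat arrays and 39 on all 3 combined arrays. There were 36 members well above background on all 12 arrays. For 3 members no control array, and for 5 no combined array, was well above background, and for these the change is a lower limit. With such members set at their limit the median drought ratio was 1.77 and the median difference -1.18.

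Signals below are percentages of the 75th percentile of the array and are given in the order of replicates 1, 2 and 3. This scaling sets that percentile equal on every array. Whether it also removes real differences between treatments was not tested. The slides carried 1 array of each treatment, and the replicate number is also the slide, so each ratio is taken within a slide. The combined arrays were dimmer, with a 75th percentile of 1329 to 1924 units against 2302 to 3105 on the other 9 arrays. After scaling, the lowest signal well above background was -6.47 to -6.21 on the log2 scale on the combined arrays. On the other 9 arrays it was -7.52 to -6.67. A scaled signal that clears background elsewhere can thus miss it on a combined array. The E1A spike-ins, which are foreign RNAs added during labelling, stood higher on the combined arrays after scaling (1.39 to 1.63 on the log2 scale against 0.33 to 1.12). Scaling to the spike-ins lowered every combined minus drought difference by a further 0.97 and brought the median combined ratio of the members to -0.15. Drought and combined arrays never shared a position on the slide, so position and the addition of heat cannot be told apart.

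The leaf label was checked against markers that could be named. RBCS1A (Sb05g003480.1), the small subunit of Rubisco, stood at 2008% of the 75th percentile in control leaves and LHCB6 (Sb06g032690.1), a light-harvesting protein, at 410%. Under drought they stood at 512% and 107.3%, and under combined stress at 587% and 88.2%. The epidermal wax enzyme KCS6 (Sb03g023131.1) stood at 1442% in the control, 1263% under drought, 193% under heat and 204% under combined stress. PPDK (Sb01g031660.1) was dim, at 2.44% in the control, 2.78% under drought, 0.53% under heat and 0.64% under combined stress. No heat array and 1 combined array were well above background for it. KCS6, PPDK and LHCB6 were thus lower under combined stress than under drought, and RBCS1A was higher. An oleosin match (Sb01g050670.1), used here as a marker of seed tissue, did not clear background in control leaves, and stood at 118% under drought, 1.10% under heat and 58.7% under combined stress. The part of these markers in the results was not tested.

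Transcription factors and other DNA-binding proteins made up 7 of the members. Their mean drought ratios ran from 1.49 to 2.65 and their combined ratios from -0.12 to 0.97. For 4 of them all combined arrays lay below all drought arrays, against 25 of the 51 members and 15.2% of all probes. The rule fixed this direction for the members. The largest fall belonged to NF-YA3 (Sb02g038960.1), a subunit of the NF-Y complex that binds CCAAT boxes in promoters. Its signal was 3.22, 3.42 and 2.07% in control leaves and 23.8, 8.07 and 30.1% under drought. It was 8.03, 4.97 and 3.22% under heat and 4.04, 3.33 and 1.32% under combined stress, where 2 of 3 arrays were well above background. Drought stood apart from the combined arrays, which overlapped the control. The mean ratio was 2.65 ± 1.32 (SD, n = 3) for drought, 0.84 ± 0.43 for heat and -0.12 ± 0.49 for combined stress. Of all members it had the highest heat ratio, and it was lower under combined stress than under heat in every replicate (mean difference -0.96 ± 0.36).

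ATHB-7 (Sb06g024000.1), a homeodomain-leucine zipper factor of the abscisic acid response, was well measured on all 12 arrays. Its signal was 177, 138 and 173% in control leaves and 925, 388 and 1571% under drought. Heat left it at 135, 141 and 159%, and combined stress gave 352, 321 and 225%. The combined arrays lay between the groups, above every control array and below every drought array, and the mean ratio went from 2.35 ± 0.85 under drought to 0.87 ± 0.43 under combined stress. Its heat arrays overlapped the control. Another gene that the study annotates as HB-7, Sb04g033380.1, is no member. Its mean ratio was 7.48 under drought, 6.38 under combined stress and 2.18 under heat, so the values above hold for Sb06g024000.1 only.

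An unnamed transcription regulator (Sb02g025240.1) varied little between replicates. It gave 6.33, 7.60 and 3.91% under drought against 0.886, 1.25 and 0.937% in the control and 1.39, 1.37 and 0.972% under combined stress. On the control 2 of 3 arrays were well above background, and on the dimmer combined arrays none was, although their signals were no lower. Drought was at least 4.37-fold higher than combined stress. A DNA-binding protein (Sb08g021080.1) had drought signals of 401, 131 and 428% and combined signals of 123, 139 and 52.0%. Here drought replicate 2 fell within the combined arrays, so the mean fall of 1.55 ± 1.57 on the log2 scale was no larger than its spread.

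The remaining 3 DNA-binding members fell by less on the log2 scale. ATHB4 (Sb10g002750.1), a homeodomain-leucine zipper factor of shade responses, had a mean ratio of 1.70 ± 0.45 under drought and 0.97 ± 0.13 under combined stress. ERF9 (Sb09g024400.1), an ethylene response factor that acts as a repressor, went from 1.49 ± 0.57 to 0.56 ± 0.56. A DNA-binding family member (Sb09g006060.1) went from 1.68 ± 0.61 to 0.37 ± 0.83.

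Transporters and channels gave 8 members, with mean drought ratios of 1.36 to 3.00. The zinc transporter match ZIP1 (Sb06g028270.1) gave 1.0, 1.99 and 2.68% under drought, where the rule required it to be well above background. None of its control, heat or combined arrays was well above background, and drought was at least 2.34-fold above the control and at least 1.44-fold above combined stress. A xanthine, uracil and vitamin C permease (Sb05g007500.1) had drought signals of 3.24, 2.08 and 5.63%. Its combined signals were 0.800, 0.313 and 2.24%, of which 1 of 3 was well above background and replicate 3 overlapped drought. No control array was well above background, and drought was at least 4.50-fold higher.

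A MATE efflux protein (Sb01g000440.1), of the family that exports small organic molecules, was measured on all 12 arrays. It gave 6.28, 8.47 and 11.8% in the control, 41.8, 37.6 and 77.3% under drought, 8.28, 8.34 and 7.10% under heat and 14.2, 12.6 and 11% under combined stress. The drought arrays stood above all others, and the control overlapped both heat and combined stress. Its mean ratio fell from 2.53 ± 0.33 under drought to 0.55 ± 0.63 under combined stress.

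An ABC transporter (Sb04g006100.1) had drought signals of 17.1, 14.9 and 33.5%. Its combined signals of 5.64, 5.58 and 7.96% lay below these and above the control signals of 3.47, 4.86 and 4.05%. Heat alone gave 2.96, 1.63 and 1.90%, below every control array. The mean ratios were 2.31 ± 0.72 for drought, -0.96 ± 0.68 for heat and 0.63 ± 0.39 for combined stress.

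The other 4 transport members fell less. MSL10 (Sb10g006710.1), a channel opened by membrane tension, went from a ratio of 2.05 ± 0.54 under drought to 0.90 ± 0.61, and the oligopeptide transporter Sb06g017470.1 from 1.99 ± 0.96 to 0.997 ± 0.93. A further MATE protein (Sb01g026750.1) went from 1.48 ± 0.32 to 0.76 ± 0.43. ABCB4 (Sb03g032000.1), an auxin transporter, went from 1.36 ± 0.56 to 0.20 ± 0.48, with heat ratios that spread by 1.79 (SD) between replicates.

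**Figure D4:**
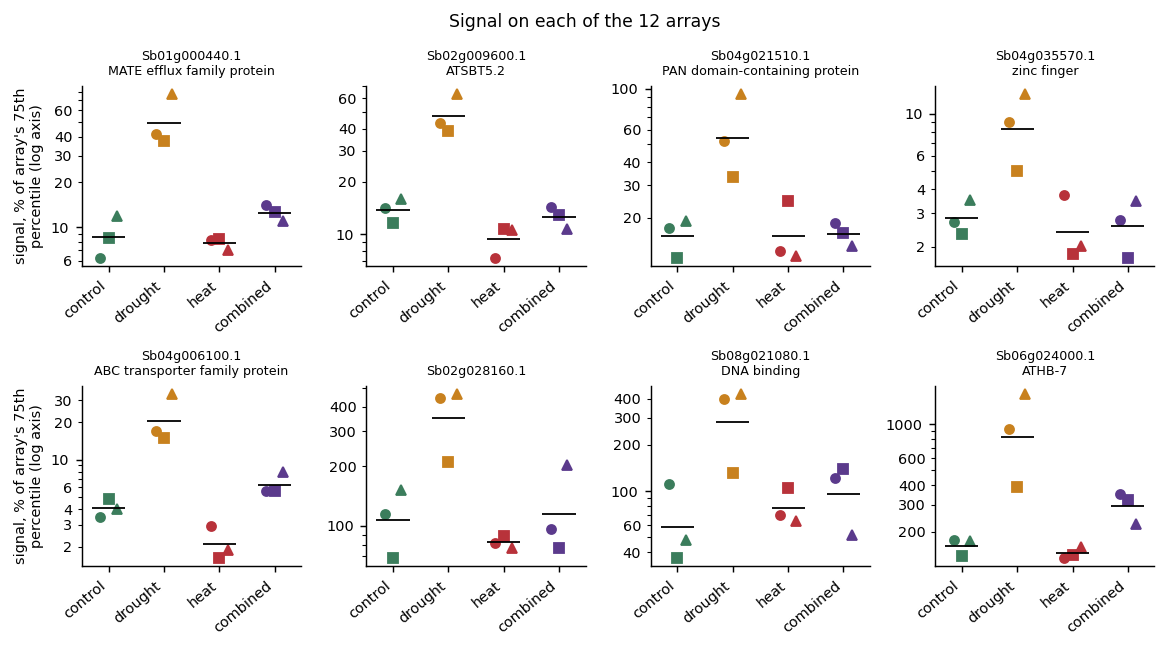
Signal on each array, as a percentage of the 75th percentile of the array (log axis), for the 8 members with the largest fall among those well above background on all 12 arrays. Circles, squares and triangles are replicates 1, 2 and 3, and the line is the geometric mean. In 7 of the 8 panels the drought points lie above all combined points; in Sb08g021080.1 they overlap.

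Enzymes of the cell wall and other secreted proteins gave 7 members. The chitinase ATEP3 (Sb06g021210.1), of a class that cleaves chitin and is secreted in stress and defence, rose from 2.15, 1.67 and 1.84% in the control to 31.0, 4.86 and 36.5% under drought. It was 1.13, 5.47 and 0.781% under heat and 4.37, 1.08 and 7.77% under combined stress. The weak drought replicate 2 lay inside the combined range, although each replicate fell on its own slide, by 2.41 ± 0.36 on the log2 scale. A further chitinase (Sb03g011710.1) had drought signals of 23.3, 19.7 and 40.6% and combined signals of 11.2, 10.1 and 7.43%, which did not overlap, and kept a mean combined ratio of 0.99 ± 0.14.

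The subtilase ATSBT5.2 (Sb02g009600.1), a secreted serine protease, overlapped the control under combined stress. It gave 14.2, 11.7 and 16.0% in the control, 43.2, 38.8 and 63.5% under drought, 7.37, 10.7 and 10.6% under heat and 14.3, 12.9 and 10.7% under combined stress. Its mean combined ratio of -0.14 ± 0.38 was among the 3 lowest of the members. A glycosyl transferase (Sb03g008000.1) fell from 2.07 ± 0.90 to 0.32 ± 0.52, and MUR3 (Sb01g047270.1), which adds galactose to xyloglucan, from 1.96 ± 0.96 to 0.96 ± 0.17. A peroxidase (Sb10g028470.1) fell from 1.64 ± 0.55 to 0.28 ± 0.24, and its drought array of replicate 2 overlapped the control. The GDSL lipase Sb04g032260.1, of a family that holds cutin enzymes, had the smallest difference of the 51, from 1.24 ± 0.09 to 0.97 ± 0.36, with overlapping arrays.

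Signalling, hormone and lipid genes gave 8 members. AOS (Sb04g007640.1), allene oxide synthase, commits lipid hydroperoxides to jasmonate. Its signal was 2.22, 2.09 and 1.86% in the control, 10.1, 6.36 and 16.7% under drought, 4.80, 0.915 and 1.23% under heat and 6.29, 0.898 and 9.29% under combined stress. The combined arrays ranged from below the control to within the drought arrays. A protein phosphatase 2C (Sb06g026510.1), of a family with several brakes on abscisic acid signalling, gave 166, 84.5 and 181% under drought and 72.0, 30.5 and 76.2% under combined stress, with no overlap.

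A PAN domain protein (Sb04g021510.1) overlapped the control under combined stress. Its signal was 17.5, 12.2 and 19.1% in the control, 51.8, 33.1 and 93.6% under drought and 18.8, 16.6 and 14.1% under combined stress. The kinase Sb04g027210.1 had a drought ratio of 2.12 ± 0.76 and a heat ratio of -0.99 ± 0.95, and stayed at 0.98 ± 1.0 under combined stress. CIPK5 (Sb02g024770.1), a kinase that works with calcium sensors of the CBL family, fell by only 0.61 ± 0.05 on the log2 scale. An auxin-responsive protein (Sb04g026330.1) fell by 1.03 ± 0.90, an NLI interacting factor (Sb09g022940.1) by 1.02 ± 0.44, and the patatin-like PLA IIIA (Sb01g013760.1), a lipid hydrolase, by 0.58 ± 0.38.

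Proteins of ubiquitination and light signalling gave 3 members. A RING finger protein (Sb04g035570.1), of a class that includes ubiquitin ligases, gave 2.71, 2.34 and 3.54% in the control and 9.07, 5.02 and 12.7% under drought. It gave 3.72, 1.83 and 2.01% under heat and 2.75, 1.76 and 3.49% under combined stress, a range that overlapped both control and heat and lay below drought. ATUBA1 (Sb01g038300.1), annotated as a ubiquitin activating enzyme, had drought signals of 24.6, 15.5 and 30.5% and combined signals of 7.64, 7.08 and 11.5%. SPA4 (Sb03g033340.1), a partner of the COP1 light signalling ligase, went from a ratio of 1.91 ± 0.49 to 0.56 ± 0.33 and its heat ratio was -0.57 ± 0.03.

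Metal and vitamin metabolism gave 3 more. NAS4 (Sb02g043670.1), nicotianamine synthase, makes a chelator that carries iron and zinc, and fell by 0.38 ± 0.33 on the log2 scale. HPT1 (Sb10g026190.1), homogentisate phytyltransferase, opens the tocopherol pathway and fell by 0.45 ± 0.53. The metal-binding ATFP3 (Sb06g013950.1) fell by 1.03 ± 0.16.

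The member with the largest fall of all had no annotation. Sb04g005490.1 gave 2.14, 1.51 and 1.87% in the control and 41.8, 8.71 and 53.4% under drought. It gave 2.07, 0.451 and 0.949% under heat, with 1 of 3 arrays well above background, and 2.43, 1.05 and 7.28% under combined stress, with 2 of 3. The drought arrays stood above all others, and combined replicate 3 was the highest outside drought. The mean ratio went from 3.88 ± 1.20 to 0.54 ± 1.27, a fall of 3.34 ± 0.67 on the log2 scale.

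In all, 4 members had no annotation and 6 were annotated as unknown protein. Among these 10, Sb02g028160.1 stood at 445, 211 and 464% under drought against 95.6, 77.3 and 204% under combined stress and 115, 68.6 and 152% in the control. Its combined arrays overlapped the control and not drought. Sb06g025360.1 stood at 434, 319 and 686% under drought and 199.8, 141 and 191% under combined stress. For Sb01g018780.1 no combined array was well above background, and drought was at least 2.26-fold higher. The other 6 fell by 0.56 to 1.22 on the log2 scale. The last 5 members were a phenylalanine-tRNA ligase (Sb02g027780.1), a transferase (Sb07g027100.1), a pentatricopeptide repeat protein (Sb01g049260.1), a zinc-binding protein (Sb04g021320.1) and a kinesin-related protein (Sb10g021920.1), with mean drought ratios of 1.72 to 2.78 and combined ratios of 0.51 to 0.97. No combined array was well above background for Sb01g049260.1 and Sb04g021320.1, for which drought was at least 1.78-fold and at least 1.97-fold higher.

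The mean heat ratio was below 0 for 38 of the 51 members, as it was for 49.2% of all probes and for 49.6% of those within the heat limits of the rule. It was below -0.50 for 14 members and above 0.50 for 3. The ratio was below 0 in all 3 replicates for 16 members (33.7% of all probes) and above 0 in all 3 for 7 (31.7% of all probes). The rule used the heat ratio, so nothing is read from these counts. Set against heat alone, combined stress still gave a higher signal for most members. The median difference was 0.85, against 1.82 over the other drought rises. This difference was above 0 in all 3 replicates for 31 of the 51, against 31.2% of all probes and 86.9% of the other drought rises. Its mean was above 1 for 21 members and for 711 of the other 915 drought rises. Only NF-YA3 was lower under combined stress than under heat in all 3 replicates (23.5% of all probes and 1.09% of the other drought rises).

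The limits of the rule passed through a continuous range of values. The members nearest inside the drought limit were ABCB4 (Sb03g032000.1) and ERF9 (Sb09g024400.1), with a lowest drought ratio of 1.001 and 1.004, and the nearest probes outside it, which carry no gene name here, had 0.999 and 0.998. At the combined limit Sb06g017470.1 (0.997) and Sb03g011710.1 (0.99) lay inside and Sb05g001380.1 (1.004) and Sb04g027210.2 (1.01) outside. At the lower heat limit Sb02g036470.1 and Sb04g027210.1 (-0.99 each) lay inside and Sb04g025000.1 (-1.01) and Sb01g032850.1 (-1.02) outside. At the upper heat limit NF-YA3 (0.84) and Sb01g049260.1 (0.71) lay inside and Sb04g023990.1 (1.01) and Sb06g024950.1 (1.08) outside. A limit of log2 of 1.5 in place of 1 on the combined ratio left 20 members.

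Probes for the same genes showed how near some members were to the limit. AOS had another probe for the same transcript, spotted 10 times, with signals of 3.28, 2.80 and 2.94% in the control, 11.7, 6.91 and 18.9% under drought and 8.46, 2.51 and 11.9% under combined stress. Its ratios of 1.94 ± 0.69 for drought and 1.08 ± 1.11 for combined stress were close to those of the member (2.32 ± 0.79 and 0.87 ± 1.85), but it fell outside the rule. The other transcript of the kinase gene, Sb04g027210.2, had ratios of 2.13 ± 0.72 and 1.01 ± 0.88, and that of the GDSL lipase gene, Sb04g032260.2, had 1.48 ± 0.23 and 1.12 ± 0.59. In limma, with Benjamini-Hochberg adjustment over 22715 probes, none of these 3 probes passed for combined stress against drought (adjusted p = 0.32, 0.087 and 0.27).

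Neighbouring genes of the same annotation, with an identifier number within 50 of that of a member, gave 5 more probes outside the rule. Only the 2971 probes that carry a name here could be found this way. The study listed all of these as changed by drought or heat, so neighbours without a response are left out. The chitinase Sb06g021240.1 had ratios of 2.73 ± 1.44 for drought and 1.15 ± 1.32 for combined stress, with a difference of -1.59 ± 0.41 that did not pass in limma (adjusted p = 0.19). The peroxidase Sb10g028500.1 had a drought ratio of 3.51 ± 1.32, with 430.0, 132 and 498% under drought against 23.2, 33.5 and 24.6% in the control. It stood at 103, 51.6 and 170% under combined stress, a fall of 1.65 ± 0.37 on the log2 scale (limma adjusted p = 0.031, 0.020 with the replicate as a block, and 0.12 in a fit of the drought and combined arrays only). For the ABC transporter Sb04g006087.1 no combined array was well above background, and drought was at least 2.46-fold higher (limma adjusted p = 0.078, 0.016 with the replicate as a block, and 0.055 in a fit of the drought and combined arrays only).

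The ABCB4 neighbours did not behave alike. Sb03g031990.1 had a drought ratio of -0.62 ± 0.65 and a combined ratio of -1.58 ± 1.06, and Sb03g032030.1 had 1.81 ± 1.21 and 2.37 ± 0.53, while the member between them had 1.36 and 0.20. Neither neighbour passed for combined stress against drought in limma (adjusted p = 0.10 and 0.57). Neighbouring copies can share probe signal, and how far these probes tell the copies apart was not tested.

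**Figure D5:**
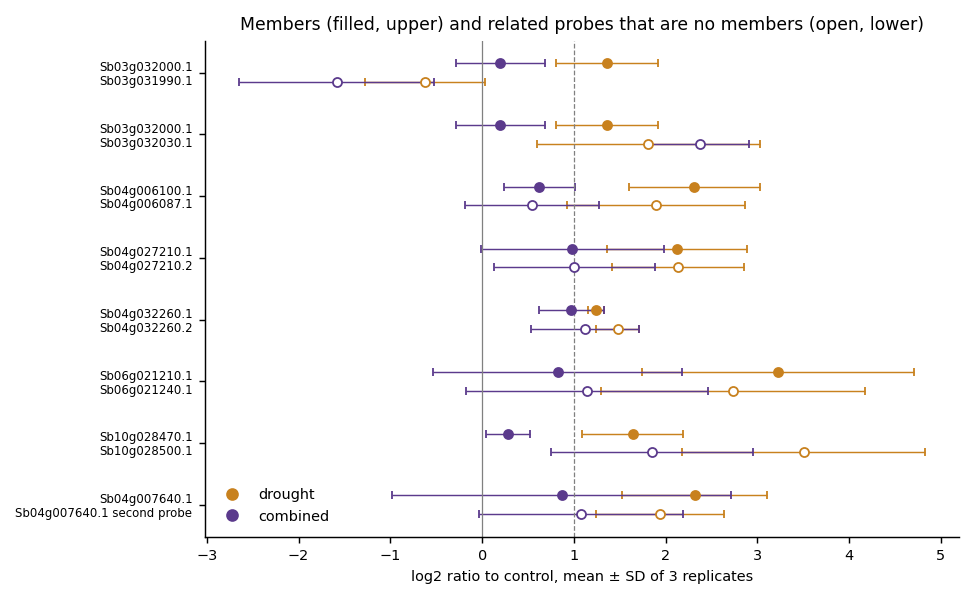
Mean log2 ratio to control with SD over 3 replicates (horizontal axis) for members (filled, upper of each pair) and for other probes of the same gene or neighbouring genes of the same annotation (open, lower). The AOS probes lie at 0.87 and 1.08 under combined stress, on either side of the limit of 1 (dashed), and the ABCB4 neighbours lie on either side of the member.

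The drought rises outside the membership were set beside the members by annotation, in lists matched by words in the gene names. Among the 915 other drought rises, limma called 62 lower and 118 higher under combined stress than under drought (adjusted p under 0.05 and over 2-fold), against 9.84% lower and 12.3% higher of all 22715 probes tested. Of 66 transcription factors among the drought rises, 5 were members, and of the other 61, 9 were called lower and 4 higher. Of 31 transporters, 5 were members, and of the other 26, 1 was called lower and 4 higher. Of 46 cell wall genes, 3 were members, and 4 of the other 43 were called lower and 5 higher. These are counts, and no list was tested against the others. The drought arrays that chose the 915 probes also enter this contrast, and the rule took the members out. The lower and higher calls, here and in the lists below, are thus a description. The same holds for the limma results above of related probes that rose under drought.

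Members made up 5.28% of all drought rises. The shares furthest above this were 25% for auxin (2 of 8), 20% for peroxidases and germins (1 of 5) and 16.1% for transporters (5 of 31). With lists this short a share can move widely on 1 member, and nothing is read from these shares. Of 32 drought rises in the abscisic acid and dehydration list, which holds late embryogenesis abundant proteins and dehydrins, 1 was a member, the phosphatase Sb06g026510.1. Of the other 31, 3 were called lower and 6 higher. Their median combined ratio was 4.94 against 3.67 under drought, but the median of the differences taken probe by probe was only 0.16. The 11 heat shock proteins and chaperones that rose under drought had a median heat ratio of 6.13, and the limit of 1 on the heat ratio keeps such genes out of the membership. Under combined stress 8 of the 11 were called higher than under drought. The lists without a member were 24 cytochromes P450 (8 called lower, 6 higher), 21 glucosyl transferases (3 lower, none higher), 9 lipid transfer proteins (1 lower, none higher) and 3 flavonoid genes (none lower, 1 higher), and nothing is read from these counts of 0.

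In 6 lists the other drought rises had a median difference between combined stress and drought of -0.66 or lower. It was -1.70 over the 4 other peroxidases and germins (1 called lower and 1 higher) and -0.84 over the 23 other kinases (4 lower, 1 higher). It was -0.76 over the 12 other wound and jasmonate genes, of which none was called lower and 3 higher, and -0.76 over the 9 lipid transfer proteins. Over the 16 other wax and cutin genes, of which 4 were called lower and none higher, it was -0.70, and over the 6 other auxin genes, of which none was called, it was -0.66. The median over all 915 was 0.02. These lists held 1, 2, 1, 0, 1 and 2 members in the order given. With the replicate as a block limma called 106 of the 915 lower, among them 7 cell wall genes, 6 of the dehydration list, 3 transporters and 2 lipid transfer proteins, and in the fit of the drought and combined arrays alone it called 26. That fit called 4 transcription factors lower and none of the cell wall genes, glucosyl transferases, transporters or lipid transfer proteins. It called 4 cytochromes P450, 3 wax and cutin genes, 2 kinases and 2 of the dehydration list lower.

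By their identifiers the members lay on all 10 chromosomes. Chromosome 4 held 10 members, which is 19.6% of the members against 10.8% of the drought rises, and chromosome 3 held 4, which is 7.84% against 17.9%. No member had another member whose identifier number lay within 50 of its own. These numbers mostly step by 10 from gene to gene, so this span covers few genes. Among the 25 members spotted 2 times per array, the spots differed by a median of 0.12 in the drought ratio and 0.09 in the combined ratio, against a median SD between replicates of 0.56 and 0.52 over all members.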

How the data were processed

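Leaf RNA was labelled with a single dye and hybridised to 12 custom Agilent arrays, 3 per treatment. The deposited scanner files hold the processed intensity of each spot after background correction by the authors' Feature Extraction software. The deposited table holds log2 values that the authors normalised in GeneSpring. Set against the scanner files, they were log2 intensities shifted to the 75th percentile of each array and centred on each probe, and member ratios from both differed by at most 0.0107. Signals were computed as processed intensity over the 75th percentile, with spots of a probe averaged on the log2 scale. Precision is limited by the number of arrays.

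Identifiers and annotations came from supplementary tables of the study, matched to probes through their replicate ratios within 5e-05, which named 2971 probes and all 51 members. The fold changes in those tables were used for matching only. Probe sequences and coordinates were not used here.

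The rule, the members and the annotation lists were chosen with earlier results of these data known. Named were the 10 members with the largest fall from drought to combined stress among those well above background on all 12 arrays and the 5 with the largest fall among the rest, up to 4 per list, those nearest each limit, and members with another probe for the gene. The remaining members are named so that each is accounted for. Probes outside the membership were tested with limma 4-group means over 12 arrays, without a block, on 22715 probes well above background on all arrays of at least 1 treatment, at an adjusted p of 0.05 (Benjamini-Hochberg) and a log2 difference of 1. Folds called at least were computed against the lowest signal well above background on each array. The replicate number is the slide, and deviations of same-numbered arrays correlated between 0.04 and 0.62 over 19391 probes, above 0.1 in 17 of 18 pairs. The fits were tested on simulated data. Alternatives were other background correction and scaling, other limits of the rule, a replicate block, all probes, and leaving out each replicate. Spike-in scaling and a fit of drought and combined arrays only were added after seeing the data. Normexp (offset 50) used median signals, as no mean signal column was used here.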

Additional observations from a re-analysis of the deposited data

Results flagged for a closer look

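NF-YA3 (Sb02g038960.1) was raised by water loss in all 3 replicates at 28 °C, with a mean log2 ratio of 2.65, and lowered by it in all 3 replicates at 50 °C, with a mean combined minus heat difference of -0.96. The opposite direction at the 2 temperatures drew attention to it. The difference between the temperatures was not tested, since the rule that chose the transcript used the same arrays. Groups of 3 arrays are too small for a search for outlying arrays.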

How the results depend on the processing

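The number of members was 51, and 52 with scanner signals. It was 195 with a drought limit of log2 of 1.5, 14 with log2 of 3, 20 with a combined limit of log2 of 1.5, 17 with the combined limit in each replicate and 149 with spike-in scaling, and ran from 68 to 214 without 1 replicate, the highest without replicate 2. Normexp also gave 51, of which 15 were members, and ratios to the mean of the 3 controls (no replicate block) gave 49, of which 33 were. The median drought ratio of 1.91 became 1.22 with normexp. The median combined ratio of 0.67 turned to -0.15 with spike-in scaling, which moved combined against control by -0.82 on every probe. The median difference of -1.30 became -0.88 with normexp, -1.08 for members well above background on all 12 arrays and -2.28 with spike-in scaling, and ran from -1.34 to -1.14 without 1 replicate. Non-overlap of combined below drought rose from 25 members to 48 with spike-in scaling. The median heat ratio kept its sign under every alternative run, and so did the fall of each of the 51 members under scanner signals, normexp, spike-in scaling and each replicate left out. The rule fixed the direction of the fall, and scanner signals and spike-in scaling could not reverse it, so nothing is read from the kept sign. The size of the fall moved by its SD or more for 20 members with normexp and for 45 with spike-in scaling. Over all probes, limma called 1115 for drought against control, 2235 with the replicate block, and 70 to 2000 without 1 replicate, the lowest without replicate 1 and 227 without replicate 3. It called 5041 for combined stress against drought, 5819 with the block, 3274 with normexp, 3321 with the drought and combined arrays only, and 1094 to 5827 without 1 replicate, the lowest without replicate 1. Causes were not tested. Signal over background limits the 15 members not well above background on every array.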
